A study of Daphnia magna with 30 samples.

Results

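An equinox day (12L:12D, 12 h of light and 12 h of dark) was compared with the long-day control under which the animals had been cultured (16L:8D, 16 h of light and 8 h of dark), in single adult females of the water flea *Daphnia magna* from experimental trial 2. The comparison takes every animal whose label names one of these photoperiods, 12 of the 30 animals on the arrays: 6 from 12L:12D and 6 from 16L:8D, each group made up of 3 exposure chambers with 2 animals (A and B) per chamber. All animals descended from a culture started with 1 individual and so share a genotype, were placed in the chambers as neonates and were 21 days old when they were taken, soon after lights on. Each was homogenized whole, with what its brood pouch held. The 3 chambers of a photoperiod stood in the same box under the same lamp, so photoperiod and box cannot be told apart. RNA of each animal was labelled with 1 dye and hybridized to its own Agilent array, which reports 14338 *D. magna* probes.

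Day length is the seasonal cue by which many *Daphnia* switch between producing daughters without mating and producing males and resting eggs. An adult female moults again and again: within each cycle she releases a brood, sheds the cuticle, lays the next eggs into the brood pouch and builds a new cuticle of chitin and cuticle proteins, a sequence driven in arthropods by pulses of the steroid ecdysone. A whole-animal RNA extract therefore mixes epidermis, gut, ovary, nervous system and embryos. In such an extract, fewer cells of a type and less RNA per cell cannot be told apart.

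Probes are given below with the names of the study's own table. That table lists transcripts that responded to photoperiod, in part in these same animals, and 958 of its transcripts are on the arrays used here. The probes that the comparison turns on were designed to the following stretches, given 5′ to 3′ in lower case. The cuticle, chitin and egg envelope probes are shown because they moved most among the named groups, and the nuclear receptor, kainate receptor and period probes because they belong to hormone, nerve and clock signalling.
DM08522P1, cuticle protein: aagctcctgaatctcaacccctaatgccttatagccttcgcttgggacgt
DM12885P2, cuticle protein: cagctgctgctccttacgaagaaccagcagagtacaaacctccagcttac
DM03975P4, chitin deacetylase 3: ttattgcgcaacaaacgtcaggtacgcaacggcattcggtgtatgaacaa
DM01941P4, chitin deacetylase 3: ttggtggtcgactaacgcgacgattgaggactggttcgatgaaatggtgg
DM07224P1, brain chitinase: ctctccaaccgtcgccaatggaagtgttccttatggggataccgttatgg
DM03869P1, chorion peroxidase: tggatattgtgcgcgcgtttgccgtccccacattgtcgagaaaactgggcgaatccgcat
DM08909P1, chorion peroxidase: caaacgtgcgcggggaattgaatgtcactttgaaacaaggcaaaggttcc
DM00285P3, nuclear receptor subfamily 1 group D: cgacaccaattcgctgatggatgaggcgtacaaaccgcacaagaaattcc
DM10810P1, kainate receptor: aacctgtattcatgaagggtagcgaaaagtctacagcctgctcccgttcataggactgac
DM10654P3, kainate receptor: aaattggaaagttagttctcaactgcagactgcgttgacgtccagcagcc
DM09904P4, period: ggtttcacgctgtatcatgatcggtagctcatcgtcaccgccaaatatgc
DM14516P3, period: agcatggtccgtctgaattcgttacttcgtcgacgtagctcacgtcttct
No pair of these 12 probes shared a run of more than 9 bases, so probes of the same name read different stretches of sequence.

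All levels are the log2 of the processed signal minus the log2 of the 75th percentile of the array, so 0 is a bright probe and a difference of 1 is 2-fold. Between 11421 and 12546 probes per 12L:12D array and between 11116 and 12308 per 16L:8D array passed the extraction software's test for signal well above background. The 12L:12D arrays lay on 4 slides and the 16L:8D arrays on 4. Slide 7 held 3 of the 12L:12D arrays and no control, and slides 4 and 9 held 1 array of 12L:12D and 2 of 16L:8D each. Members of the tissue lists were found in both groups: at least 1 array was well above background for 6 of 8 egg envelope and yolk transcripts in 12L:12D, against 8 of 8 in 16L:8D, for 12 of 12 chromatin and replication transcripts in each, and for 11 of 11 cuticle and chitin transcripts in each.

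One control library stood apart from the other controls. Animal 2B of 16L:8D lay at -0.48 on the second main axis of the spread between animals of the same photoperiod, an axis that holds 18.9% of that spread. The 6 animals of 12L:12D lay between -0.62 and -0.30, and the other 5 animals of 16L:8D between 0.20 and 0.60. Animals of the shorter days also spread widely on this axis, from -0.65 to 0.43 in 4L:20D and from -0.65 to 0.65 in 8L:16D. Those of the longer day 20L:4D lay between 0.06 and 0.67. On the first axis, which holds 41.3%, the 12L:12D animals ranged from -0.60 to 0.49 and the 16L:8D animals from -0.58 to 0.01. Over all probes, 57.4% were nearer in animal 2B to the mean of 12L:12D than to the mean of the other controls. Because the chamber was the unit, this animal entered the control as a share of chamber 2, and leaving it out moved the difference by more than 1.5-fold for 32 of the 75 called transcripts chosen by the naming rule, all 32 toward a larger size. The animal was singled out after the data were seen, for lying with 12L:12D. Larger differences without it therefore follow largely from that choice. Values are with this animal unless stated.

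**Figure D1:**
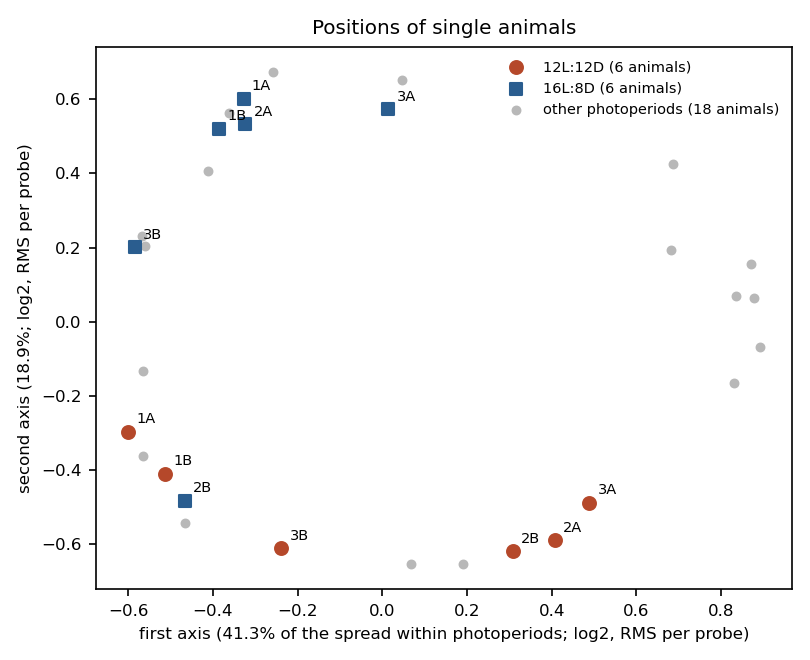
Position of each animal on the first and second axis of the variation among animals of the same photoperiod (log2, root mean square per probe), with 12L:12D as circles, 16L:8D as squares and the other 18 animals in grey; labels give chamber and animal. On the second axis the 6 animals of 12L:12D sit between -0.62 and -0.30 with the 16L:8D animal 2B at -0.48 among them, and the other 5 controls sit between 0.20 and 0.60.

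Of the 14338 probes, 746 were called different between 12L:12D and 16L:8D, which is 5.20% of those tested: 353 were higher in 12L:12D (2.46%) and 393 lower (2.74%). A call required p under 0.01 for photoperiod over the 5 photoperiods, p under 0.05 for the contrast, both unadjusted, and a change of at least 1.5-fold, in a limma fit to 15 chamber means. With Benjamini-Hochberg adjustment over all probes in the same fit, 474 transcripts passed 0.05 (3.31%), 195 higher and 279 lower. The change was at least 4-fold for 311 of the called transcripts, and the median difference over all probes was -0.06. The 3 chamber means of 12L:12D did not overlap the 3 of 16L:8D for 4221 probes (29.4%), and the single animals did not overlap for 789 (5.50%). The 474 became 0 when chamber 2 or 3 of 12L:12D, or chamber 1 or 3 of 16L:8D, was left out, with 463 to 516 transcripts still called, and animals B alone gave 89 calls. The adjusted count was also 0 in a limma fit to the 12L:12D and 16L:8D chambers alone. There 1089 transcripts were called and 3243 had an unadjusted p under 0.05. With unmoderated tests on the 15 chambers, 11 passed the adjusted threshold. Without animal 2B, left out after the data were seen, 1074 transcripts were called and 1342 passed the Benjamini-Hochberg threshold. With the positions of the animals on both axes as covariates, 75 transcripts were called, of which 23 were among the 746, and none passed the Benjamini-Hochberg threshold while 913 had an unadjusted p under 0.05 (limma). These positions differ between the photoperiods, with a mean on the second axis of -0.50 in 12L:12D and 0.32 in 16L:8D. Such covariates therefore take out part of the photoperiod difference itself, and these counts cannot separate it from the spread.

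**Figure D2:**
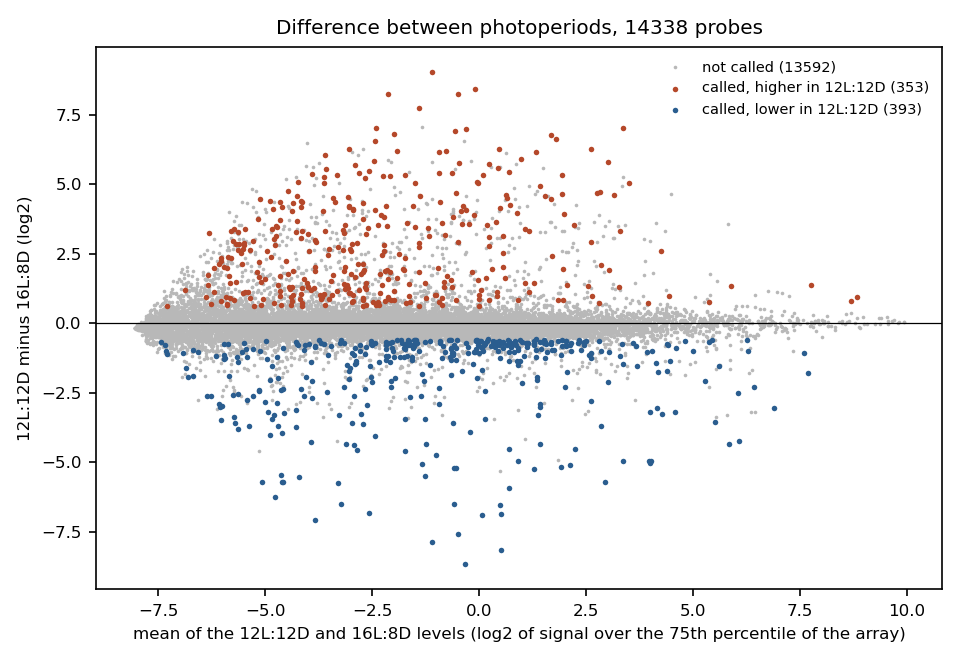
Difference 12L:12D minus 16L:8D (log2) against the mean level of both groups for each of 14338 probes; coloured points are the 353 called higher in 12L:12D and the 393 called lower. Called changes reach more than 8 on the log2 scale in both directions and occur at dim and bright levels alike.

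The largest differences were taken among called transcripts that were well above background on at least 9 of the 12 arrays, with chamber means apart. Most were in transcripts that were uncharacterized, had no match or were not in the name table. DM04514P1, an uncharacterized protein, had chamber means of 3.88, 4.10 and 4.38 in 12L:12D, against -6.01, -1.40 and -5.55 in 16L:8D, a difference of 8.44 ± 1.78 (SE; limma, Benjamini-Hochberg adjusted p = 0.031). The controls were dim except for animal 2B at 4.47. Only 3 of the 6 control arrays were well above background, so the size of the difference rests in part on values at background. DM07279P1, chosen here after its values were seen because it carries the same name, differed by 8.23 ± 1.80 (adjusted p = 0.0349 in the same fit). Both probes hold the same run of 28 bases, shown in capitals, so they are not independent readings.
DM04514P1: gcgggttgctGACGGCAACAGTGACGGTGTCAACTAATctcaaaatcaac
DM07279P1: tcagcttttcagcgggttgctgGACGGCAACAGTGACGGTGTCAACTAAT
In the other direction, DM05761P3, which is not in the name table, had chamber means of -4.89, -7.32 and -1.82 in 12L:12D, against 6.51, 0.78 and 4.71 in 16L:8D (difference -8.68 ± 1.82, adjusted p = 0.0308). Here the lowest control was animal 2B at -4.90, and the other 5 controls lay between 2.62 and 6.80. Only 3 of the 6 arrays of 12L:12D were well above background, so this size too rests in part on values at background. The 8 largest increases ran down to 6.26 on the log2 scale, for DM03958P1, an angiopoietin-related protein, and the 8 largest decreases to -6.52, for DM07234P2 and DM06597P2. All 16 had chamber means that did not overlap, which the rule that chose them required.

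Transcripts of the cuticle and of chitin changed in both directions. Cuticle proteins bind chitin in the exoskeleton, chitinases cut it, and chitin deacetylases modify it. Of 11 members, 4 were called higher and 2 lower, and the median difference was 1.18, beside -0.06 over all probes. That 54.5% were called has to be read against 33.5% among all 958 named transcripts (13.3% higher and 20.3% lower), since the table chose them for a response to photoperiod and is not independent of these animals. The 33.5% takes in 225 transcripts listed from experimental trial 1, of which 5.33% were called. The share among the other named transcripts, listed from trial 2 alone, is therefore greater. Members of most lists here came mainly from trial 2, so 33.5% is a low yardstick for them. The cuticle protein DM08522P1 had the smallest p of all probes: its chamber means were 0.13, 1.19 and 0.36 in 12L:12D and -4.53, -2.52 and -3.87 in 16L:8D. All 6 animals of 12L:12D lay above all 6 controls, with -0.13 as the lowest 12L:12D value and -0.17, in animal 2B, as the highest control, and the other controls at or below -3.66. The difference was 4.20 ± 0.48, 18.4-fold (Benjamini-Hochberg adjusted p = 0.0202, limma).
Both chitin deacetylase 3 probes rose. DM03975P4 had chamber means of -0.66, -2.16 and -1.25 in 12L:12D, against -5.80, -3.56 and -5.35 in 16L:8D (difference 3.55 ± 0.73, adjusted p = 0.0297). DM01941P4 had -0.39, -1.59 and -0.84 in 12L:12D and -6.12, -3.50 and -5.75 in 16L:8D (4.18 ± 0.87, adjusted p = 0.0306). In both, the control animal 2B, at -1.06 for DM03975P4 and -0.31 for DM01941P4, was as bright as the 12L:12D animals while the other 5 controls were dim. Of the control arrays, 3 were well above background for DM03975P4 and 1 for DM01941P4, and without 2B the differences were 4.38 and 5.25. The brain chitinase DM07224P1, a chitin-cutting enzyme, differed by 6.19 ± 1.30 (adjusted p = 0.0308), with 2.11, 2.64 and 2.25 in the 12L:12D chambers and -5.29, -1.61 and -4.68 in the control chambers, and by 7.55 without 2B.
Another cuticle protein went the other way. DM12885P2 had chamber means of 3.17, 1.93 and 2.06 in 12L:12D, against 6.55, 4.43 and 5.78 in 16L:8D, a fall of 3.20 ± 0.67 on the log2 scale (adjusted p = 0.0307), and of 3.84 without 2B. The chitinase domain-containing protein DM12429P1 was also lower, by -0.85 ± 0.21 (adjusted p = 0.0483). DM07224P1, DM12885P2 and DM12429P1 were singled out after their values were seen. The 5 members not called ranged from -2.61 ± 0.73 for the endocuticle glycoprotein DM06037P2 to 2.04 ± 0.91 for DM12209P2, a peritrophin-like cuticular protein. The mean of the 11 transcripts in an animal lay between -0.93 and -0.35 in 12L:12D and between -2.29 and -0.28 in 16L:8D, where the highest was animal 2B and the next -1.89.

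**Figure D3:**
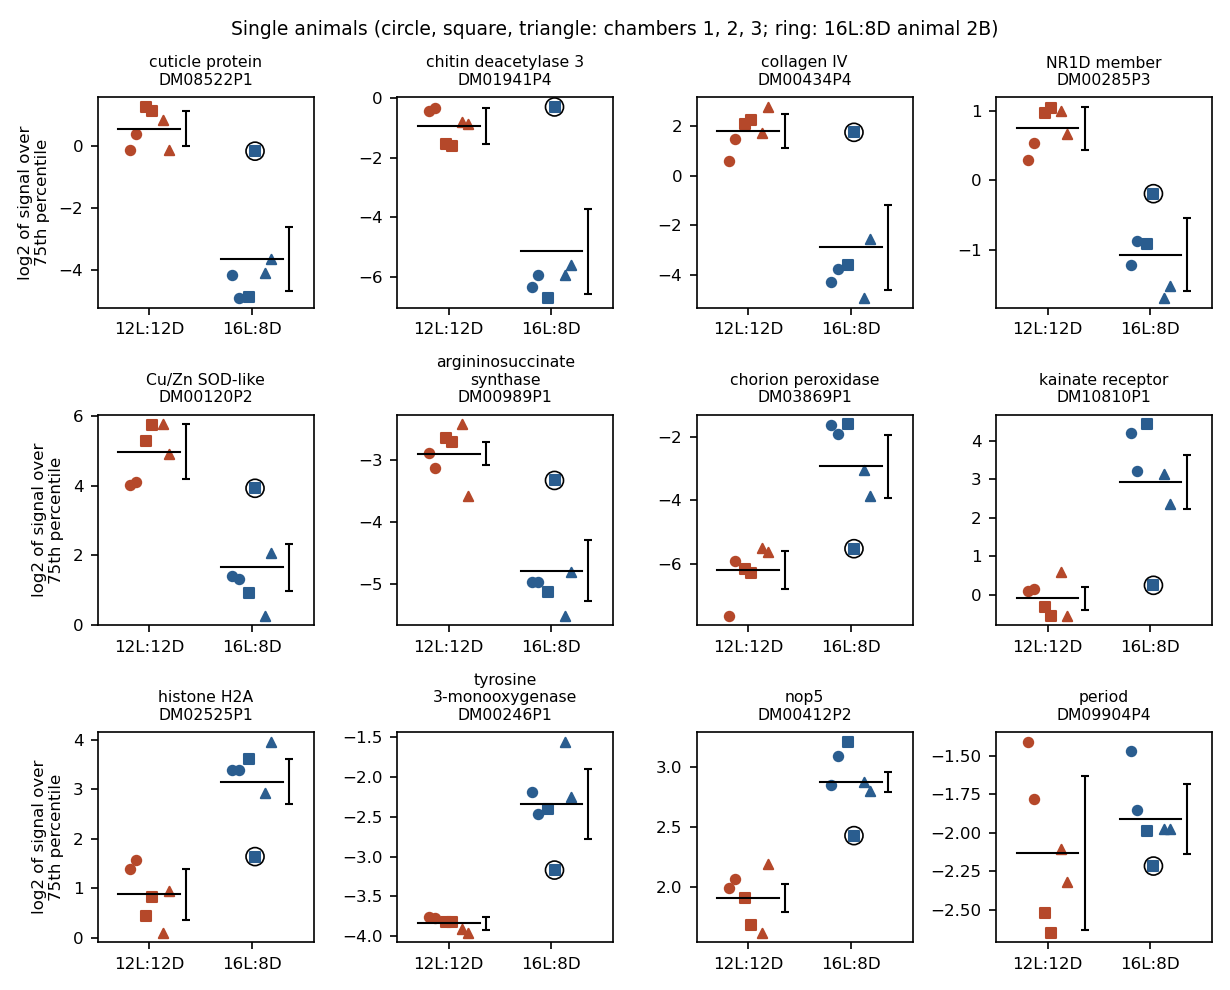
Levels of 12 transcripts in single animals (log2 of signal over the 75th percentile of the array), 12L:12D on the left and 16L:8D on the right of each panel; symbols give the chamber, bars the mean of 3 chamber means with its SD, and the ring marks the 16L:8D animal 2B. In the cuticle protein panel the 12L:12D animals lie at or above -0.13 and the ringed control at -0.17, with the other controls at or below -3.66.

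Several egg envelope transcripts fell. Chorion peroxidases harden the egg shell in insects, vitelline membrane proteins form the layer around the egg, and vitellogenin is the yolk precursor. Of 8 members, 4 were called lower, 1 higher and 3 not at all, with a median of -1.58. The 62.5% called stand beside 33.5% of all named transcripts, a low yardstick here, as 7 of the 8 members were listed from trial 2. DM03869P1, a chorion peroxidase, was not well above background on any of the 6 arrays of 12L:12D and well above it on all 6 of 16L:8D. Its chamber means were -6.77, -6.22 and -5.56 in 12L:12D and -1.79, -3.57 and -3.45 in 16L:8D, so it was at least 7.87-fold lower in 12L:12D (adjusted p = 0.0267, limma with Benjamini-Hochberg adjustment). Bounds of this kind set the mean of the brighter group against the lowest signal among probes well above background on each dim array, or the dim probe's own value where that is higher. Animal 2B, at -5.52, was again in the range of the 12L:12D animals, and the next control was at -3.86. A further chorion peroxidase, DM08909P1, was not well above background on any 12L:12D array and above it on 4 of 6 control arrays, and was at least 5.56-fold lower (adjusted p = 0.0384). DM08907P2, of the same family, exceeded background clearly in 2 of the 12L:12D animals and in 5 controls, all but 2B. It was called lower and missed the adjusted threshold (adjusted p = 0.0507), and its fitted difference, -6.81 ± 1.70, rests in part on values at background. The vitelline membrane outer layer protein DM06044P1, among the brightest of the list, fell by 0.81 ± 0.21 (adjusted p = 0.0559), with 3.31, 3.26 and 3.26 in the 12L:12D chambers and 4.30, 3.81 and 4.14 in the control chambers. The vitelline protein DM11500P2 differed by -2.28 ± 0.68 and the chorion peroxidase DM03972P1 by -0.88 ± 0.51, and neither was called.
The yolk precursor gave 1 call, upward. Of the 2 probes for vitellogenin fused with superoxide dismutase, DM01555P3 was called higher, with -1.60, -0.23 and -0.52 in 12L:12D and -3.14, -2.20 and -2.90 in 16L:8D (1.97 ± 0.56, adjusted p = 0.0723). DM00375P2 averaged 1.53 ± 0.10 in 12L:12D and 1.73 ± 0.06 in 16L:8D (SD, n = 3 chambers each), a difference of -0.20 ± 0.42 (adjusted p = 0.818). The difference between these 2 probes was not tested. The mean of the list in an animal lay between -3.29 and -2.36 in 12L:12D and between -3.17, in 2B, and -0.15 in 16L:8D.

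Probes named for type IV collagen rose. Type IV collagens form the sheet on which epithelia rest, and 4 probes carrying the name collagen IV alpha 1 chain were called higher, by 2.93 to 4.69 on the log2 scale. DM00434P4 averaged 1.81 ± 0.67 in 12L:12D and -2.89 ± 1.71 in 16L:8D (SD, n = 3 chambers each), with no overlap of chamber means (4.69 ± 0.83, 25.9-fold, adjusted p = 0.0267). Animal 2B was at 1.75, the other 5 controls lay between -4.93 and -2.55, and the difference was 5.58 without 2B. DM12010P3 rose by 3.23 ± 0.63 (adjusted p = 0.0290; 3 of 6 control arrays well above background) and DM05282P3 by 3.14 ± 0.72 (adjusted p = 0.0412). Over the 34 members of the cell adhesion, matrix and cytoskeleton list, 7 were called higher and 2 lower, and the median was 0.55. At 26.5% called, the list was below the 33.5% of all named transcripts. The rise did not extend to every collagen: DM05241P2, by the paper's name a collagen alpha-1(XVIII) chain, differed by -0.27 and was not called. The largest fall among the calls was that of a contactin-associated protein, DM05057P1, by 1.54 ± 0.49.

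Transcripts for making RNA and protein lay mostly below the control, by small steps. Ribosome biogenesis factors process ribosomal RNA and assemble ribosomal subunits in the nucleolus: of 35 members 20 were called lower and none higher, all 35 differences were below 0, and the median was -0.71. Of all probes 57.0%, and of all named transcripts 68.4%, lay below 0. The nucleolar protein nop5 (DM00412P2), a core part of the particles that methylate ribosomal RNA, had chamber means of 2.03, 1.79 and 1.91 in 12L:12D, against 2.97, 2.82 and 2.83 in 16L:8D. The single animals did not overlap, with 2.19 as the highest in 12L:12D and 2.43, in 2B, as the lowest control, and the difference was -0.96 ± 0.15 (adjusted p = 0.0267). NHP2 (DM00202P4), of the particles that convert uridines in ribosomal RNA, fell by 1.08 ± 0.19, and the nucleolar repeat protein DM01044P1 by 0.84 ± 0.15, both with an adjusted p of 0.0267. These 3 were lower in every 12L:12D animal than in every control.
The other lists of this kind had smaller shares of calls. Of 23 proteasome subunits, which degrade tagged proteins, 7 were called lower (median -0.49). The regulatory subunit 6B probe DM00044P3 had 1.00, 0.59 and 0.75 in 12L:12D and 1.40, 1.44 and 1.58 in 16L:8D (-0.70 ± 0.15, adjusted p = 0.0306). Among 17 chaperonins and other folding factors 5 were called lower (median -0.63), with the chaperonin subunit epsilon DM00353P1 at -0.68 ± 0.13. Among 23 spliceosome and related RNA factors 6 were called lower (median -0.58), with the helicase DDX39A (DM01045P1) at -0.84 ± 0.16. Among 17 translation factors and tRNA ligases 4 were called lower (median -0.38), with initiation factor 4A-II (DM01974P2) at -0.62 ± 0.13. No member of these 4 lists was called higher, and 1, 1, 0 and 1 members had a difference above 0. Their shares of calls, 30.4%, 29.4%, 26.1% and 23.5%, were no greater than the 33.5% among all named transcripts. Of the ribosome biogenesis list 57.1% was called, but 34 of its 35 members were listed from trial 2, for which 33.5% is a low yardstick.
The position of the control animal 2B depended on the size of the change. Among all transcripts called at under 2-fold, 56.4% were nearer in it to the 12L:12D mean than to that of the other controls, and among those called at 4-fold or more 94.5%. For the ribosome biogenesis list the mean over members lay between -1.71 and -1.26 in the 12L:12D animals and between -1.15 and -0.60 in the controls, without overlap. For the proteasome list it lay between -0.96 and -0.54 in 12L:12D and between -0.41 and -0.14 in 16L:8D, again without overlap. Trial 2, the source of these animals, had listed 34 of the 35 ribosome biogenesis and 21 of the 23 proteasome members. Both separations are therefore not independent of how the members were chosen.

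**Figure D4:**
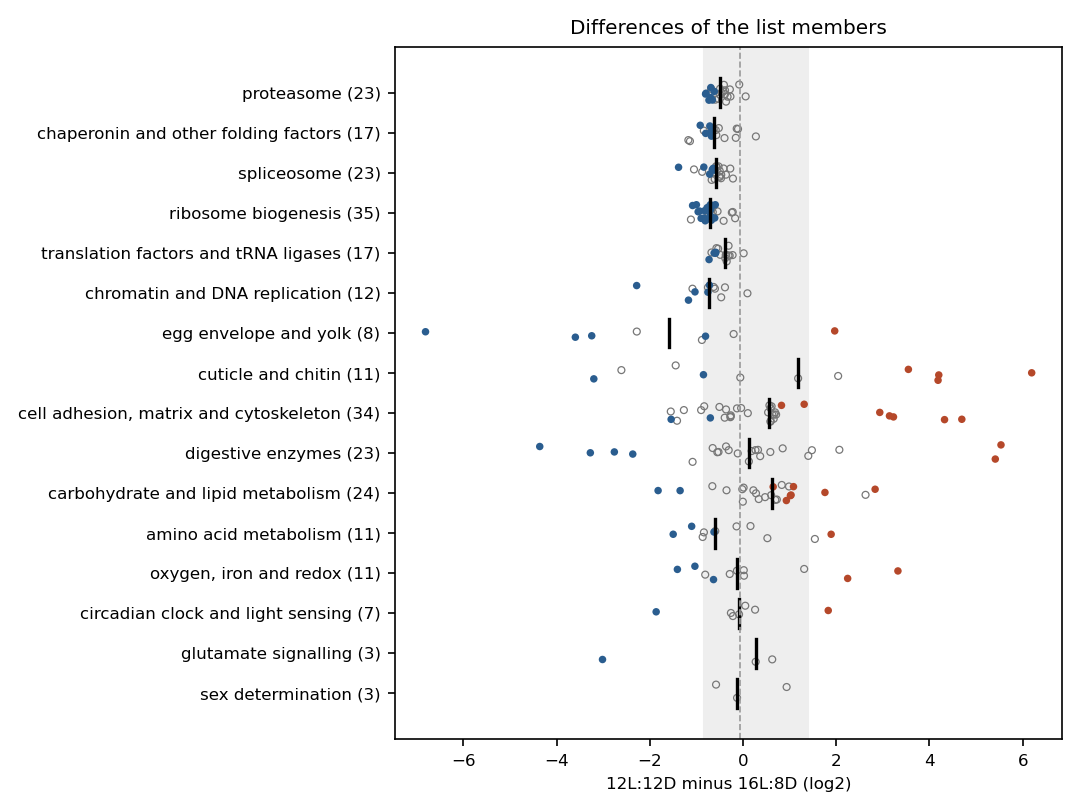
Difference 12L:12D minus 16L:8D (log2) of each member of 16 gene lists, with the number of members in parentheses; filled points were called, open points were not, black bars are list medians, the dashed line is the median of all probes and the shaded band runs from the 5th to the 95th percentile of all probes (-0.85 to 1.39). The 35 ribosome biogenesis members all lie below 0, and the cuticle, egg and collagen members spread over several log2 units.

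Some transcripts of chromatin and of DNA replication fell. Of 12 members 5 were called lower, none higher and 7 not at all, with a median of -0.74. The 41.7% called stand beside 33.5% of all named transcripts, with 20.3% called lower. Of the 12 members 11 were listed from trial 2, for which 33.5% is a low yardstick, so no excess is read from the 41.7%. Histone H2A (DM02525P1) had 1.47, 0.63 and 0.51 in 12L:12D and 3.39, 2.63 and 3.45 in 16L:8D, a fall of 2.28 ± 0.57 (adjusted p = 0.0529), with no overlap between animals. A subunit of DNA polymerase delta (DM03620P2), which copies DNA in dividing cells, fell by 1.17 ± 0.22 (adjusted p = 0.0284), and a histone H3-like transcript (DM13192P4) by 0.75 ± 0.18 (adjusted p = 0.0443). Uridine 5′-monophosphate synthase (DM03220P4), which makes the pyrimidine nucleotide UMP, fell by 0.87 ± 0.12 (adjusted p = 0.0202), the smallest p among the decreases.

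Signalling transcripts gave a few calls among many that did not pass. The nuclear receptor of subfamily 1 group D (DM00285P3), a family whose vertebrate members act in the clock and whose insect relative E75 is induced by ecdysone, was higher: 0.41, 1.01 and 0.84 in the 12L:12D chambers and -1.05, -0.56 and -1.61 in the control chambers. No 12L:12D animal overlapped a control, the nearest being 0.29 in 12L:12D and -0.19 in 2B of 16L:8D, and the difference was 1.83 ± 0.28, 3.55-fold (adjusted p = 0.0267). An F-box/LRR-repeat protein (DM09476P2), of a family that marks proteins for degradation, was lower, with -1.38, -1.80 and -1.58 in 12L:12D and 1.21, -0.24 and -0.13 in 16L:8D (-1.86 ± 0.44, adjusted p = 0.0430). Animal 2B was at -1.67.
Neither of the probes matched by name to the clock gene period was called, and others were not looked for. The paper lists period transcripts as responding in this trial, by a test over all photoperiods and not this contrast. DM09904P4 had -1.60, -2.58 and -2.21 in 12L:12D and -1.66, -2.10 and -1.97 in 16L:8D, a difference of -0.22 ± 0.21 (adjusted p = 0.591), and DM14516P3 had -4.29, -4.60 and -4.92 in 12L:12D and -4.37, -4.79 and -4.79 in 16L:8D, a difference of 0.05 ± 0.18 (adjusted p = 0.910). All animals were sampled soon after lights on, so these values concern that hour only. The rhodopsin-class receptors DM06155P2 and DM12611P4, members of a receptor family that includes the opsins, differed by -0.09 ± 0.15 and -0.26 ± 0.20, and the arrestin DM03055P2, which shuts off rhodopsin-type receptors, by 0.26 ± 0.12, with 2 of the 12L:12D arrays missing for outlier spots. In all, 2 of the 7 clock and light-sensing transcripts were called, 28.6% beside 33.5% of all named transcripts.
Of 3 transcripts of glutamate signalling 1 was called, 33.3% beside 33.5% of all named transcripts. The kainate receptor DM10810P1, a glutamate-gated ion channel, had 0.13, -0.43 and 0.02 in 12L:12D and 3.72, 2.34 and 2.75 in 16L:8D, a fall of 3.03 ± 0.48, 8.17-fold (adjusted p = 0.0267). The 12L:12D animals lay at or below 0.58, animal 2B at 0.24 and the other controls at or above 2.36. The other kainate receptor, DM10654P3, differed by 0.63 ± 0.18 (adjusted p = 0.0770) and missed the requirement on photoperiod, although its animals did not overlap. Glutamate decarboxylase (DM00966P3), which makes the transmitter GABA, differed by 0.27 ± 0.24 and was not called. None of the 3 sex determination transcripts was called: transformer (DM06854P1) differed by 0.93 ± 0.38 (adjusted p = 0.192), transformer-2 (DM11280P1), whose insect counterpart directs sex-specific splicing, by -0.58 ± 0.24 (adjusted p = 0.197), and a testis development protein (DM04300P2) by -0.13 ± 0.27 (adjusted p = 0.823).

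Single metabolic enzymes changed in both directions. Argininosuccinate synthase (DM00989P1), which joins citrulline and aspartate, averaged -2.89 ± 0.19 in 12L:12D and -4.78 ± 0.49 in 16L:8D (SD, n = 3 chambers each; difference 1.89 ± 0.30, adjusted p = 0.0267). Tyrosine 3-monooxygenase, which makes the dopamine precursor also used in hardening cuticle, was lower with both of its probes: DM00246P1 had -3.77, -3.82 and -3.93 in 12L:12D and -2.32, -2.78 and -1.91 in 16L:8D (-1.50 ± 0.29, adjusted p = 0.0284), and DM06858P3 differed by -1.10 ± 0.32 (adjusted p = 0.0764). For DM00246P1 every 12L:12D animal was below every control. Of the 11 amino acid metabolism transcripts 1 was called higher and 3 lower (36.4%, median -0.60), near the 33.5% of all named transcripts.
Of 24 transcripts of carbohydrate and lipid metabolism, 7 were called higher and 2 lower (37.5%, median 0.62), again near the 33.5%. Glucose dehydrogenase DM11070P3 rose by 1.76 ± 0.28 (adjusted p = 0.0267), with 2 of 6 control arrays well above background. Phosphoenolpyruvate carboxykinase (DM01903P2), which directs carbon toward making glucose, fell by 1.35 ± 0.28 (adjusted p = 0.0307). A pair of probes singled out after their values were seen, for ATP-citrate synthase, which makes acetyl-CoA for fat synthesis, rose by 1.03 ± 0.24 (DM00824P2) and 0.93 ± 0.25 (DM03431P3), while acetyl-CoA carboxylase (DM02087P1), the next step of that pathway, fell by 1.82 ± 0.42.
Among proteases and other digestive enzymes 2 of 23 were called higher and 4 lower (26.1%, below the 33.5%), with a median of 0.12. The clip-domain serine protease DM10610P1, of a family known in insect immunity, rose by 5.41 ± 1.15 (adjusted p = 0.0316; 2 of 6 control arrays well above background), while DM02546P2, which carries the same name, fell by 2.37 ± 0.51 (adjusted p = 0.0342). Cathepsin O (DM04463P1), a lysosomal protease, fell by 3.28 ± 0.56 (adjusted p = 0.0267).
Of 11 oxygen, iron and redox transcripts 2 were called higher and 3 lower (45.5%, beside the 33.5%), with a median of -0.13 and no common direction. Of the 11 members 8 were listed from trial 2, for which 33.5% is a low yardstick. A copper-zinc superoxide dismutase-like protein (DM00120P2) had 4.06, 5.51 and 5.34 in 12L:12D and 1.35, 2.42 and 1.16 in 16L:8D, a difference of 3.32 ± 0.77 (adjusted p = 0.0413), with all animals of 12L:12D above all controls. Hemoglobin (DM01567P2) was well above background on 6 arrays of 12L:12D and on 1 of 16L:8D. It ranged from -4.85 to -2.52 in the 12L:12D animals and from -7.18 to -3.39, in 2B, in the controls (called higher, adjusted p = 0.0624), and no size is given because most control arrays were at background. Ferritin (DM01902P1), which stores iron, fell by 1.03 ± 0.26 (adjusted p = 0.0509), and glutathione S-transferase omega-1 (DM03187P1) by 0.63 ± 0.14 (adjusted p = 0.0337).

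Some called transcripts were measured in only 1 of the photoperiods. Among those called higher, 10 were not well above background on any 16L:8D array and above it on at least 4 of 6 arrays of 12L:12D, and among those called lower, 24 showed the converse. Of all 14338 probes, 12951 had at least 1 array well above background in 12L:12D and 12908 in 16L:8D. How many of all probes met either pattern was not counted, so 10 and 24 are not read as many or few. DM02926P1 and DM03624P2, neither in the name table, were at least 4.75-fold and 4.50-fold higher in 12L:12D (adjusted p = 0.0308 and 0.0413). DM11268P4, an uncharacterized protein, was at least 17.9-fold lower in 12L:12D (adjusted p = 0.0267): its chamber means were -7.80, -8.24 and -7.79 in 12L:12D and 0.50, -3.83 and -3.34 in 16L:8D, where 4 of 6 arrays were above background. DM10003P3 was at least 9.05-fold lower, with the same count of arrays and an adjusted p of 0.0267 (limma). Both bounds average over controls that were split. Control animals 2B and 3B lay with or near the 12L:12D animals, at -8.00 and -7.53 for DM11268P4 and at -5.68 and -6.17 for DM10003P3.

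Compared with 8L:16D, the next shorter day (8 h of light), 12L:12D gave 147 calls, 1.03% of the probes, 75 of them higher and 72 lower. None passed the Benjamini-Hochberg threshold in the limma fit, although 1029 had an unadjusted p under 0.05. This comparison shares its 12L:12D chambers with the one above, so the 2 are not independent. Of the 16 lists, 6 had any member called against 8L:16D, with at most 3 members in a list.
Means over the 5 photoperiods place the levels of a few transcripts, without a test. The cuticle protein DM08522P1 averaged -1.58 ± 0.75, -0.85 ± 0.30, 0.56 ± 0.56, -3.64 ± 1.03 and -3.57 ± 0.17 from the shortest day, 4L:20D, to the longest, 20L:4D, with 12L:12D the third (SD, n = 3 chambers each), so that 12L:12D was the highest. The nuclear receptor DM00285P3 averaged 0.20 ± 0.33, 0.28 ± 0.37, 0.75 ± 0.31, -1.07 ± 0.53 and -0.96 ± 0.15 in the same order and was likewise highest in 12L:12D, where it overlapped 8L:16D. The kainate receptor DM10810P1 averaged 1.55 ± 0.71, 0.87 ± 0.80, -0.095 ± 0.29, 2.94 ± 0.71 and 3.14 ± 0.50, again in that order, and its mean was lowest in 12L:12D, where the chambers overlapped those of 8L:16D. Glucose dehydrogenase DM00868P2 had lower means on longer days up to 16L:8D, which overlapped 20L:4D, with -2.36 ± 0.13, -3.26 ± 0.10, -4.07 ± 0.05, -4.71 ± 0.11 and -4.78 ± 0.22 from the shortest to the longest day. Its difference was 0.65 ± 0.13 from 16L:8D (adjusted p = 0.0290) and -0.81 from 8L:16D (adjusted p = 0.178, limma). The other probe of that name, DM11070P3, had its highest mean in 12L:12D, at -3.60 ± 0.23, overlapping 8L:16D.

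**Figure D5:**
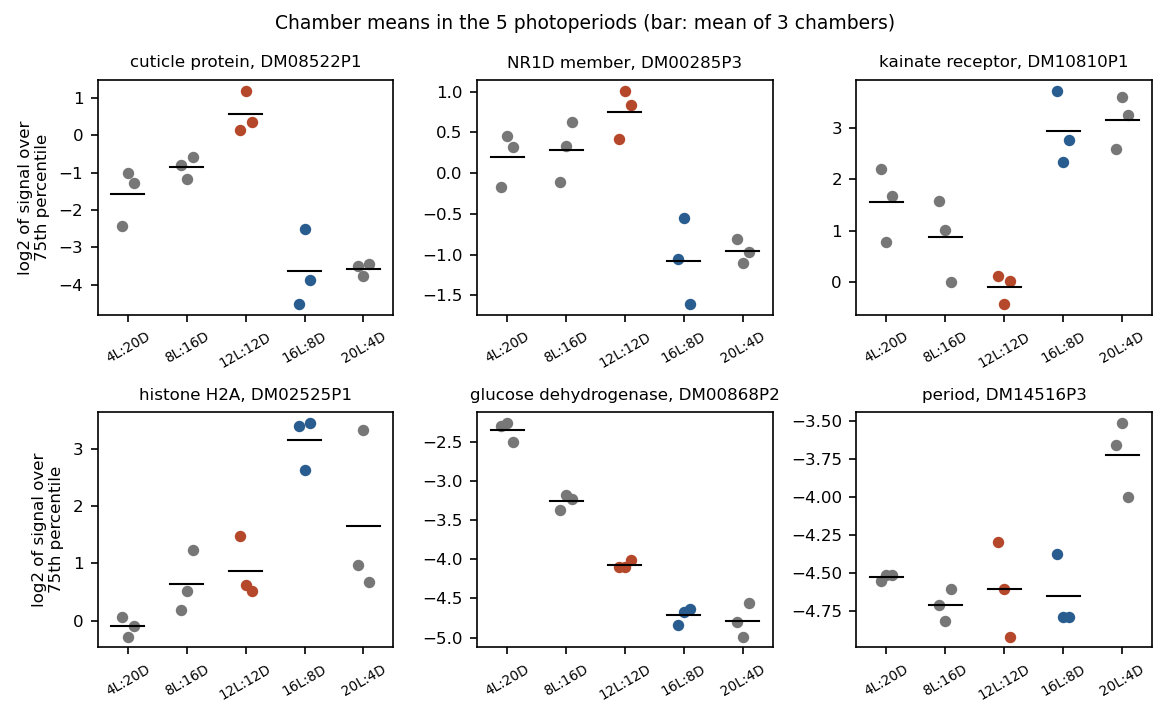
Chamber means of 6 transcripts (log2 of signal over the 75th percentile of the array) in the 5 photoperiods, from the shortest to the longest day, with 12L:12D and 16L:8D in colour and the bar at the mean of 3 chambers. Glucose dehydrogenase DM00868P2 falls over the 4 shorter days and overlaps between the 2 longest, while the means of the cuticle protein and the nuclear receptor are highest, and that of the kainate receptor lowest, in 12L:12D.

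Without the control animal 2B the difference was 4.98 for the cuticle protein DM08522P1, 1.95 for the nuclear receptor DM00285P3, -3.73 for the kainate receptor DM10810P1 and -1.09 for nop5 (DM00412P2). The median of ribosome biogenesis was then -0.82, the median of cuticle and chitin 1.40 and the median of egg envelope and yolk -1.93. With the positions on both axes as covariates in place of this, 69 of the 75 called transcripts chosen by the naming rule lost their call, 2 changed sign and 4 kept their call, while all 16 list medians kept their sign: the median of ribosome biogenesis was -0.21, the median of cuticle and chitin 0.52 and the median of egg envelope and yolk -0.56. As these positions differ between the photoperiods, that fit also takes out part of the difference it is meant to measure.

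Transcripts that entered the name table through experimental trial 1, which used other animals, were called about as often as all probes. Of 225 listed from that trial, 25 of them also from trial 2, 12 were called between 12L:12D and 16L:8D, 3 higher and 9 lower. That is 5.33%, beside 5.20% of all probes. These 225 were dim, with a median level of -4.31 in 12L:12D against -2.49 over all probes. At least 1 array of 12L:12D was well above background for 150 of them, against 12951 of the 14338 probes. The table also pools responses to all the photoperiods compared with 16L:8D. Whether responses carried over between the trials was therefore not tested. Within the slides that held both photoperiods, a comparison that includes no slide 7 array and not animal 2B, 743 of the 746 called transcripts kept their direction on slide 4 and 745 on slide 9 (1 array of 12L:12D and 2 of 16L:8D on each, no test), beside 79.5% and 79.6% of all probes. These arrays also entered the calls, so the direction is not independent. The values of 21 of the 88 named transcripts on slide 4 and of 35 on slide 9 moved by more than 1 SD between chambers.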

How the data were processed

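The arrays of experimental trial 2 were used. Spot intensity was read by the authors in Agilent Feature Extraction (10.7.3.1 per the file headers), and the processed signal they deposited is this intensity after background subtraction, on a linear scale. The authors also deposited log2 values, relative to the array's 75th percentile and centred on each probe's median, which correlated with the recomputed values at 0.9999 or more and served as an alternative. Of 456240 spots that are not controls on the 30 arrays, 188 outlier spots were left out, none was saturated, and spots of a probe were averaged. The log2 signal minus the array's 75th percentile was averaged over the 2 animals of a chamber and fitted with limma 3.58.1 in R 4.3.3 over 15 chambers of 5 photoperiods (10 residual and 2.002 prior degrees of freedom), with no filter on dim probes. An error beside a difference is limma's standard error. The labels tell chambers apart but not boxes, so p-values measure the spread between chambers of the same box. The number of arrays limits the precision.

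The 16 lists were matched by name to the study's table, which names 958 of the probes, 953 with a sequence. The members, lists and comparisons were chosen with earlier results of these data known. Transcripts were named by rule: the 8 largest called changes in each direction among probes well above background on at least 9 of 12 arrays with chamber means apart, up to 3 members of each list by p, a set of names (period, F-box/LRR, transformer, glutamate, egg envelope, rhodopsin-class, tyrosine 3-monooxygenase, hemoglobin and nuclear receptor transcripts), up to 4 each way that were at background in 1 photoperiod, and the 5 smallest p each way. The fit was tested on simulated data. The alternatives are given in the closing section, and statmod 1.5.0 served for the random block. Python 3.11.15 with numpy 2.4.6, pandas 2.3.3 and matplotlib 3.10.9 drew the figures. Genome positions of the probes were not used here.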

Additional observations from a re-analysis of the deposited data

Results flagged for a closer look

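Within each group of 6 animals (4 for the arrestin in 12L:12D), the highest and lowest values of the 88 transcripts chosen by the naming rule and of the 16 list means were compared with the rest by Dixon's ratio. In all, 208 groups were examined and 27 had an animal set apart. Chance flags about 1 in 20 of independent groups. These groups share the same animals, and many were chosen for their difference, so that rate is no yardstick for the 27. Of the 27, 22 were the 16L:8D animal 2B, and counts without that animal stand in the report. Each value of that animal stands before the range of the other 5 controls.

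It was far above the other controls for DM14525P1 (3.83, others -6.74 to -3.94), the cuticle protein DM08522P1 (-0.17, others -4.91 to -3.66) and the chitin deacetylases DM03975P4 (-1.06, others -6.23 to -5.34) and DM01941P4 (-0.31, others -6.70 to -5.60). The same held for the collagen IV probes DM00434P4 (1.75, others -4.93 to -2.55) and DM05282P3 (1.61, others -2.36 to -0.93), argininosuccinate synthase DM00989P1 (-3.32, others -5.50 to -4.80), DM13913P1 (-1.70, others -4.79 to -3.71), DM15093P4 (-5.66, others -7.92 to -7.28) and DM03624P2 (-5.68, others -8.08 to -7.40). The means of the cuticle and chitin list (-0.28, others -2.29 to -1.89) and of the cell adhesion, matrix and cytoskeleton list (0.30, others -0.76 to -0.38) were also highest in it.

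It was far below the other controls for DM05761P3 (-4.90, others 2.62 to 6.80), DM07430P1 (-4.39, others 2.38 to 5.12), DM06330P1 (-3.60, others 3.26 to 5.61), DM02085P1 (-2.87, others 3.54 to 6.04), DM07234P2 (-2.53, others 2.94 to 6.06) and DM10555P3 (-7.69, others -4.28 to -3.42). So it was for the chorion peroxidase-like DM08907P2 (-7.82, others 0.14 to 3.52), the vitelline membrane protein DM06044P1 (3.32, others 4.12 to 4.36), the clip-domain protease DM02546P2 (-2.75, others -1.48 to -0.88) and the arrestin DM03055P2 (4.20, others 4.63 to 4.87).

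Among the 12L:12D animals, 1A was lowest for the chorion peroxidase DM03869P1 (-7.62, others -6.28 to -5.49) and highest for the period probe DM14516P3 (-3.96, others -4.92 to -4.56). Animal 2B of 12L:12D was lowest for DM11268P4 (-8.49, others -7.99 to -7.71) and DM10555P3 (-7.89, others -7.49 to -7.37), both probes at background in that photoperiod. Animal 3A of 12L:12D had the highest mean over the glutamate signalling list (-2.30, others -3.07 to -2.78).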

How the results depend on the processing

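Called transcripts numbered 746, those passing the Benjamini-Hochberg threshold 474, and calls against 8L:16D 147. In that order, the counts were 904, 1040 and 168 with 30 arrays by photoperiod and animal letter, 722, 676 and 112 by photoperiod and exposure replicate number, 739, 600 and 96 with the chamber as a random block, and 926, 1499 and 244 with slide as a block. They were 75, 0 and 53 with the axes of the spread as covariates, 894, 961 and 224 with the spike-in mean as covariate, 506, 11 and 68 with unmoderated tests, 811, 728 and 152 with quantile normalization, and 462, 188 and 96 with normexp. They were 750, 480 and 146 with the deposited log2 table, 741, 482 and 138 with floored signals, and 670, 540 and 116 with only the probes that 15 or more arrays showed well above background. The 2-fold minimum gave 510 calls and 84 against 8L:16D, no requirement on the photoperiod p gave 1841 and 448, animals A alone 837, 454 and 90, animals B alone 89, 0 and 128, and the 12L:12D and 16L:8D chambers alone 1089 and 0. Leaving out 1 chamber gave 463 to 998 calls, 0 to 971 passing the adjusted threshold and 59 to 380 against 8L:16D. The adjusted count was 971 when 12L:12D lost chamber 1 and 0 when it lost chamber 2 or 3, or when 16L:8D lost chamber 1 or 3. The calls were 463 and 476 when 12L:12D lost chamber 2 or 3, and 468 when 16L:8D lost chamber 3, and those against 8L:16D were 380, 59 and 77 when 12L:12D lost chamber 1, 2 or 3. Where none passed in limma, 913 to 3243 had an unadjusted p under 0.05. Without the 16L:8D animal 2B, chosen after seeing the data, the counts were 1074, 1342 and 177. The causes were not tested. Of the calls, 47.3% were higher in 12L:12D, and 29.2% with animals B alone. Normexp moved the median of all probes to 0.13.

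The replicate numbers 1 to 3 are in the labels of both photoperiods. Same-numbered chambers deviated with correlations of 0.127, -0.005 and 0.031, and differently numbered ones with -0.139 to 0.159. The deviations of the 3 chambers of a photoperiod sum to 0, so these values cannot show whether the numbers pair the chambers. No pairing was assumed in the main fit. With the number as a replicate block, 656 transcripts were called, 362 passed the adjusted threshold and 165 were called against 8L:16D.

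Between 9 and 12 of the 16 list medians lay below 0 under every alternative, 11 in the main setting. Of the named calls, the difference changed sign only with the axes of the spread as covariates, for DM06330P1 (0.24) and DM02085P1 (0.19). Of those not called, sign changed for DM03972P1 (0.45), DM06155P2 (0.10) and DM14516P3 (-0.015) with these covariates, DM00375P2 (0.30) with slide as a block, DM04300P2 with the spike-in covariate (0.023) and normexp (0.18), DM00966P3 with animals A alone (-0.094) and DM09904P4 when 12L:12D lost chamber 2 (0.0087, range -0.49 to 0.0087 with a chamber left out). DM14516P3 also changed to -0.026 with quantile normalization and -0.023 with animals B alone, and ranged from -0.11 to 0.20 with a chamber left out.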

Other observations

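The aquaporin DM03176P1, a water channel in no list and noticed after its values were seen, was not well above background on any 12L:12D array and above it on 5 of 6 control arrays. It was at least 5.08-fold lower in 12L:12D (limma, Benjamini-Hochberg adjusted p = 0.0290), and its single animals did not overlap. The probes DM03681P3 and DM03877P2, both named WD repeat-containing protein, share a run of 47 bases, and the filamin-B probes DM00167P2 and DM02099P1 share 28, so each pair reads partly the same sequence. These are among 5 pairs of the 953 probes with a sequence that share at least 16 bases.

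The animals of a chamber differed in how alike they were. In 12L:12D the correlation between the 2 animals over all probes was 0.985, 0.991 and 0.955 in chambers 1 to 3, and in 16L:8D it was 0.989, 0.937 and 0.957. The lowest, in chamber 2 of 16L:8D, is that of the pair that includes animal 2B.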
